A study of Danio rerio with 2 samples.

Results

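DEAD-box and DEAH-box genes encode RNA helicases, and their transcripts are described here in RNA that came down with Flag-tagged Cpeb1b from zebrafish embryos. The genes were chosen by name alone: a row belonged to the family when its Ensembl gene name was DDX or DHX followed by a number and any letters, as in ddx3xa, with 2 further genes whose names fit left out. This gave 42 of the 33737 rows of the deposited table. With letter case ignored they stand for 39 distinct symbols, because DDX39A, DDX19A and DHX32 each name 2 rows. The single group of the series has 2 replicate samples, from wild type embryos injected with Flag-cpeb1b mRNA and harvested at 16 h post-fertilization (hpf), in mid-somitogenesis. Both samples are immunoprecipitates on anti-FLAG beads, and no input, control precipitate or uninjected embryo was analysed here, so each value is a level in the precipitate and not an enrichment. The labels give whole embryos, so a transcript cannot be assigned to a tissue, and a transcript found in few cells cannot be told apart from one at a low level in many.

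DEAD-box and DEAH-box proteins share a pair of RecA-like domains and are named after the amino acids of one conserved motif, Asp-Glu-Ala-Asp or Asp-Glu-Ala-His. Both use ATP to remodel RNA. DEAD-box enzymes pry apart short duplexes locally and can clamp RNA, whereas DEAH-box enzymes usually move along a strand and pull it free of its partners. Most of their known work is housekeeping: ribosome assembly in the nucleolus, the steps of splicing, mRNA export and translation initiation. Cpeb1b is the RNA-binding bait, a cytoplasmic polyadenylation element-binding protein that acts on mRNA 3′ ends.

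The measure is RPKM, read density over the gene model (reads per kilobase) divided by library size, and the deposited value is already the authors' mean of both replicates, so no SD and no test between samples could be given. Errors are therefore counting errors only. The steps of the deposited values correspond to about 13.1 reads per kilobase at RPKM 1 over both libraries (6576767 and 6551397 reads, if the deposited value is a plain mean), and 95% Poisson intervals below assume a gene model of 1 kb. A longer model gives a narrower interval, and the spread between embryos is not covered.

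Helicase transcripts were recovered well above the level of most genes. Of the 39 symbols, with the higher row taken where there were several, 36 (92.3%) reached RPKM 1, the level called detected here, against 49.0% of all 19976 symbols and 55.2% of the 16458 symbols that RefSeq lists as protein-coding. At RPKM 10 or more stood 15 symbols (38.5%), against 8.34% of all symbols and 9.26% of protein-coding ones. The family median was 5.04 RPKM, with quartiles of 2.26 and 15.1 RPKM, compared with 0.954 RPKM for all symbols and 1.26 RPKM for protein-coding symbols. The family median was thus 5.29 and 4.00 times these background medians. Above the median of protein-coding symbols lay 33 of 39, where the background share is 50.0% by construction, and 17 of 39 were in the top 10%. No member was listed at 0. These are counts over a named family and carry no test.

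The levels within the family spanned 419.9-fold. The germ-line-associated ddx43 was highest at 110.5 RPKM (95% counting interval 105 to 116), rank 250 of all rows, and the nucleolar DDX21 was next at 76.9 RPKM (72.2 to 81.8), rank 343. DDX5, a co-regulator of transcription, followed at 32.3 RPKM (29.3 to 35.5) and DDX18, a factor of large ribosomal subunit assembly, at 31.5 RPKM (28.6 to 34.7). DHX9, the highest member with a DHX name, had 22.0 RPKM (19.6 to 24.7). These 5 rows held 52.8% of the summed RPKM of the family, and ddx43 with DDX21 alone held 36.2%. The 21 lowest rows together held 8.61%. The row named CPEB1, taken by name for the transcript of the bait, stood at 30.5 RPKM, below 4 helicase rows. Its name does not say whether it is cpeb1b. If it is, reads from the injected mRNA and the endogenous gene are not separated in that value.

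Most neighbours in this order had overlapping counting intervals. Of 41 steps from one row to the next lower one, 38 overlapped under the 1 kb model. Overlap alone does not show that levels are equal, and a longer model would give narrower intervals. The 3 steps that were apart lay at the top, namely from ddx43 to DDX21 (1.44-fold), from DDX21 to DDX5 (2.38-fold) and from DDX18 to DHX9 (1.43-fold). The intervals of DDX5 and DDX18 overlapped, as did those of DHX9, DDX27 and DDX23. At the low end, DHX58 had 0.263 RPKM, about 3.46 reads per kilobase, with an interval of 0.0627 to 0.719 RPKM.

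**Figure D1:**
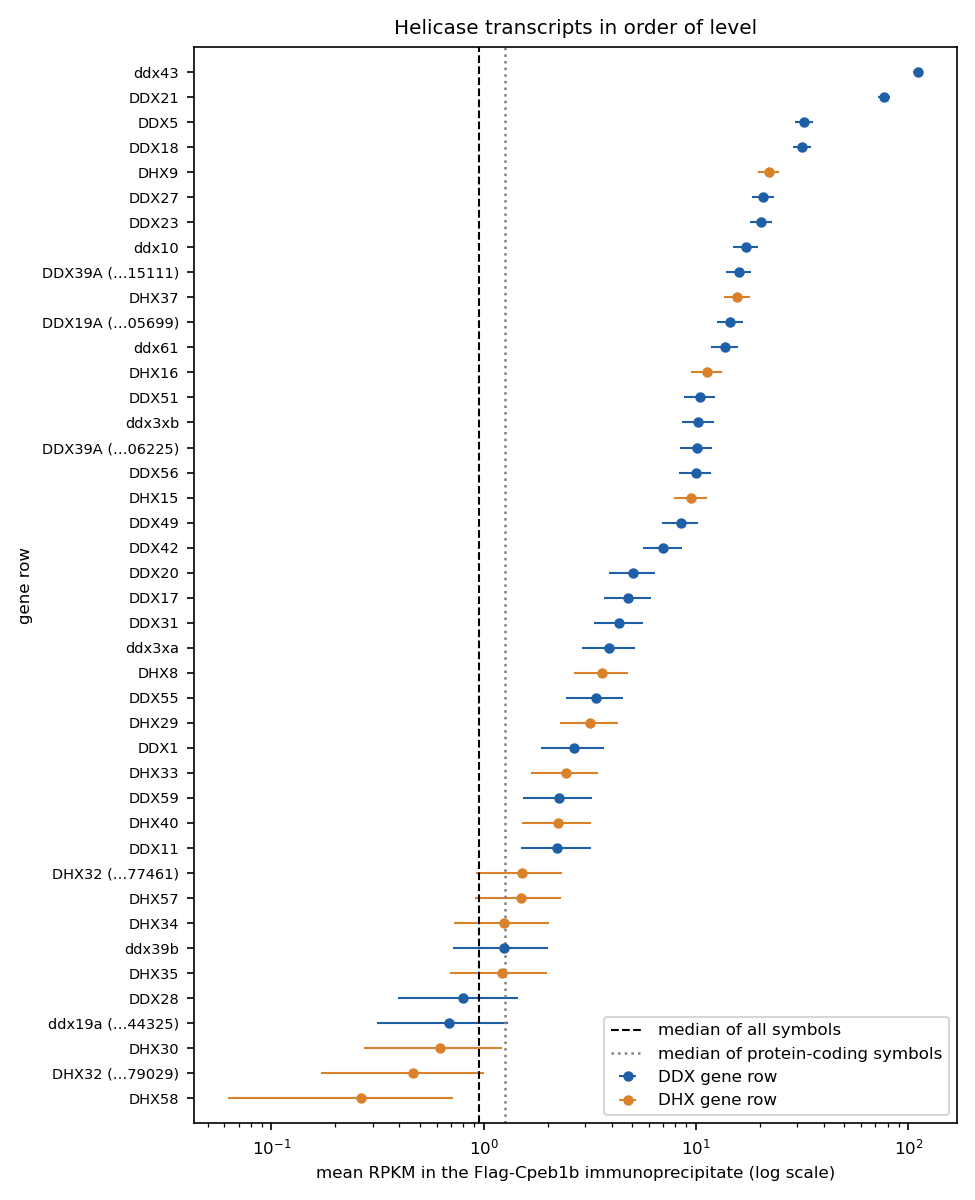
Mean RPKM of the 42 helicase rows on a log axis, from the highest to the lowest, with bars for the 95% Poisson counting interval of a 1 kb gene model; blue marks DDX and orange DHX names, the dashed line is the median of all symbols (0.954 RPKM) and the dotted line that of protein-coding symbols (1.26 RPKM). Rows that share a symbol carry the last digits of their gene identifier. ddx43 and DDX21 stand clear of the rest, and 5 rows lie under RPKM 1.

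Genes named DDX stood higher than genes named DHX as groups. The 25 DDX symbols had a median of 9.96 RPKM, 24 of them (96.0%) reached RPKM 1 and 12 (48.0%) reached RPKM 10. The 14 DHX symbols had a median of 2.34 RPKM, with 12 (85.7%) at RPKM 1 or more. At RPKM 10 or more were 3 DHX symbols (21.4%), namely DHX9, DHX37 and DHX16. Of all symbols 49.0% reached RPKM 1 and 8.34% reached RPKM 10, and of protein-coding ones 55.2% and 9.26%. The difference of the DDX and DHX medians was 2.04 on the log2(RPKM + 0.1) scale. The ranges overlapped widely: DHX9 lay above 21 of the 25 DDX symbols, and the lowest DDX symbol, DDX28 at 0.801 RPKM, lay below 12 of the 14 DHX symbols. Gene names set these groups, and the motif of each protein was not checked. The genes are not replicates, so the difference is a description.

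**Figure D2:**
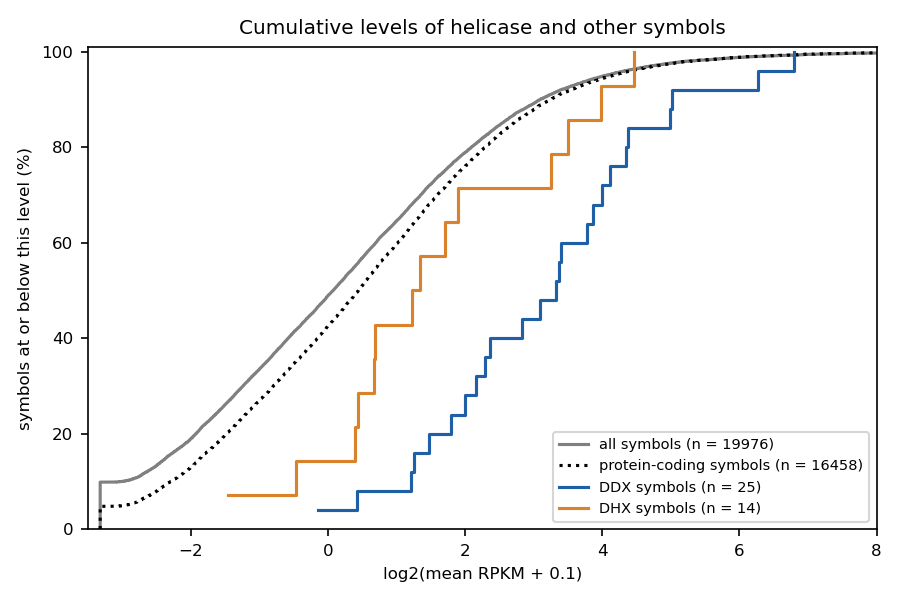
Cumulative share of symbols (y axis, percent) at or below each level of log2(mean RPKM + 0.1) (x axis) for 25 DDX symbols, 14 DHX symbols, all 19976 symbols and 16458 protein-coding symbols. The DDX curve lies to the right of the DHX curve, with medians of 9.96 and 2.34 RPKM, and both lie to the right of the background over the middle of the range.

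Helicases of ribosome assembly, with both subunits joined, formed the largest group, a size that the role lists set. All 9 symbols that had a row and were assigned to ribosomal subunit assembly reached RPKM 1, with a median of 10.4 RPKM. Of these 9, 5 reached RPKM 10. The background shares were 49.0% of all symbols and 55.2% of protein-coding ones at RPKM 1. At RPKM 10 they were 8.34% and 9.26%. DDX24, DDX47, DDX52 and DDX54 were also assigned to subunit assembly but had no row. Among the large-subunit factors, DDX18 had 31.5 RPKM, DDX27 20.7 RPKM, DDX51 10.4 RPKM and DDX56 9.96 RPKM. DDX31 at 4.35 RPKM and DDX55 at 3.37 RPKM, which also act in large-subunit maturation, were lower, with counting intervals (3.30 to 5.64 and 2.45 to 4.52 RPKM) that overlapped each other and not those of the other 4. Of the small-subunit factors, ddx10 had 17.2 RPKM, DHX37, whose yeast counterpart releases the U3 small nucleolar RNA from the pre-ribosome, had 15.7 RPKM, and DDX49 had 8.45 RPKM. DDX21, which in human cells couples ribosomal RNA transcription to processing, exceeded all of these at 76.9 RPKM. DHX33, another nucleolar helicase, had 2.44 RPKM.

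The helicases that drive the spliceosome came next in the number assigned, again a size set by the role lists. All 6 symbols that had a row and were assigned to splicing reached RPKM 1, with a median of 8.21 RPKM. The background share at RPKM 1 was 49.0% of all symbols and 55.2% of protein-coding ones. DDX46, DHX38 and ddx41 were also assigned to splicing but had no row, so the series below is not complete. Along the splicing cycle, DDX42, which associates with the U2 particle, had 6.97 RPKM, and DDX23, which lets U6 replace U1 at the 5′ splice site, had 20.3 RPKM. SNRNP200, the Ski2-like helicase that unwinds U4 from U6 and whose name lies outside the family pattern, had 10.6 RPKM. DHX16, which activates the first catalytic step, had 11.3 RPKM (9.52 to 13.2), and DHX8, which releases the spliced mRNA, had 3.61 RPKM (2.65 to 4.79). DHX15, which takes the used spliceosome apart, had 9.45 RPKM (7.86 to 11.3). DHX35 was lowest at 1.22 RPKM, near the protein-coding median of 1.26 RPKM. The span from DDX23 to DHX35, 16.6-fold, therefore lay within enzymes of the same machine.

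Export and translation helicases showed unequal levels between close relatives. The DDX39 proteins load export factors onto spliced mRNA. Of 2 rows named DDX39A, ENSDARG00000015111 had 15.9 RPKM and ENSDARG00000006225 had 10.1 RPKM, a ratio of 1.58 (95% counting interval 1.27 to 1.98). The row ddx39b had 1.24 RPKM, and the lower DDX39A row was 8.11 times as high (4.90 to 14.9). DDX19 releases mRNA at the cytoplasmic face of the nuclear pore. Its higher row, named DDX19A (ENSDARG00000005699), had 14.5 RPKM. The lower row, named ddx19a (ENSDARG00000044325), had 0.686 RPKM, a ratio of 21.1 (10.9 to 46.9). RefSeq lists ddx39aa and ddx39ab, and ddx19a and ddx19b. The lower DDX19 row has the same name as RefSeq ddx19a, but rows that share a symbol were not assigned to these genes beyond their names.

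The translation helicase Ddx3x, which helps ribosomes through structured leaders, is encoded by a pair of genes. ddx3xb had 10.3 RPKM and ddx3xa 3.91 RPKM, a ratio of 2.63 (1.91 to 3.73). DHX29, which binds the small subunit and promotes scanning, had 3.17 RPKM. DDX5 and DDX17, paralogues that act in transcription, splicing and microRNA processing, differed 6.75-fold, at 32.3 and 4.79 RPKM (interval of the ratio 5.16 to 8.92). The 2 rows named DHX32 had 1.51 and 0.463 RPKM, a ratio of 3.26 whose interval of 1.29 to 10.1 is wide at this depth. In each pair the interval of the ratio lay above 1, assuming a 1 kb model for both genes. A shorter model would give a wider interval. For rows that share a symbol the higher was divided by the lower, so their ratio is above 1 by construction. How reads that align to both copies were counted is not given in the sources used here.

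The remaining members lay mostly in the lower part of the family. DDX20, a subunit of the SMN complex that assembles spliceosomal particles, had 5.04 RPKM, and DDX1, part of the tRNA ligase complex, had 2.66 RPKM. DDX11 had 2.22 RPKM; it is a DNA helicase of sister chromatid cohesion despite its name. DHX34, a factor of nonsense-mediated decay, had 1.25 RPKM. Among members with no assigned role, ddx61 had 13.7 RPKM, DDX59 2.27 RPKM, DHX40 2.24 RPKM and DHX57 1.497 RPKM. Under RPKM 1 stood both family members assigned to mitochondrial RNA, DDX28 at 0.801 RPKM and DHX30 at 0.624 RPKM. They act on the mitochondrial ribosome and its RNA. Of all 19976 symbols, 10190 were also under RPKM 1. A low level did not extend to SUPV3L1, a mitochondrial RNA helicase whose name lies outside the family pattern. SUPV3L1 reached RPKM 1 and lay above 65.2% of all symbols. The other family rows under RPKM 1 were the lower DDX19A and DHX32 rows and DHX58, the antiviral sensor LGP2. Under the 1 kb model the intervals reached 1.45 RPKM for DDX28 and 1.22 RPKM for DHX30, past the median of all symbols (0.954 RPKM). A longer model would narrow them, so whether DDX28 and DHX30 lie below that median was not settled.

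The highest member, ddx43, has a human counterpart known mainly from testis and tumours. Its row (ENSDARG00000022614) was 116 times the median of all symbols and above 99.3% of protein-coding symbols. In RefSeq annotation of the GRCz12tu assembly no other gene overlapped ddx43, DDX21, DDX5, DDX18 or DHX9. Of 37 symbols found there by name, 12 overlapped another gene, among them DDX27, DDX23 and DHX37, and 0 overlapped an annotated small RNA gene. The same shares over all RefSeq genes were not computed, so these counts only describe the members. Whether overlapping genes affect any level was not tested. The deposited table rests on an older build, Zv9, and its gene models were not used here.

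**Figure D3:**
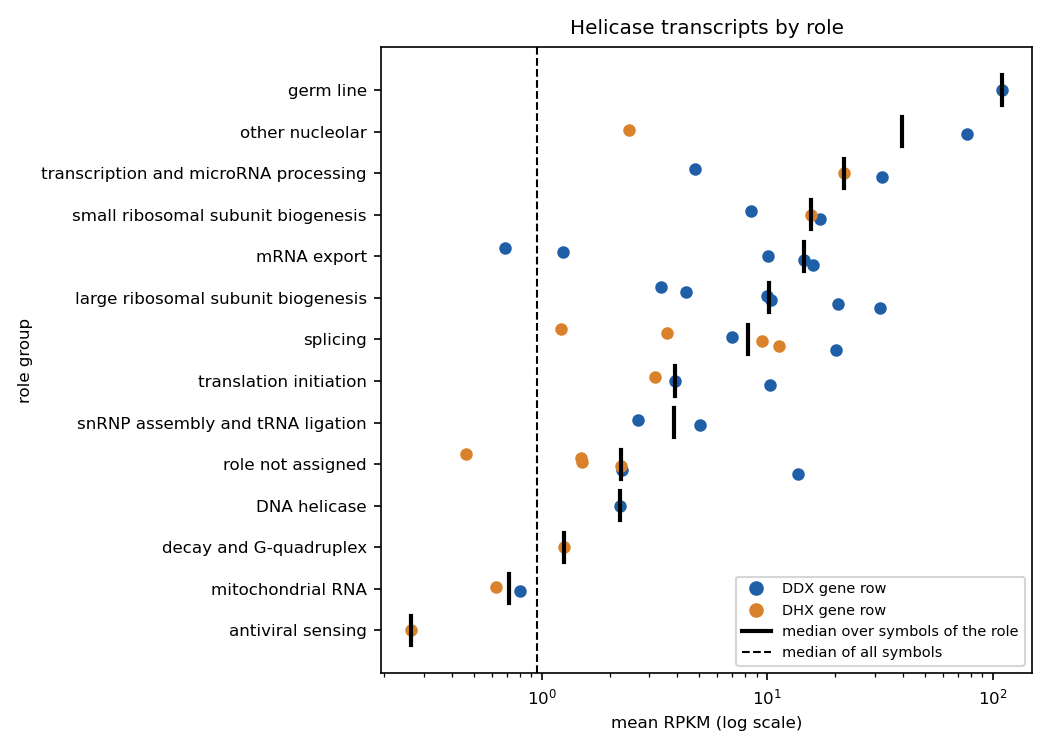
Mean RPKM (log axis) of the 42 helicase rows grouped by role, with blue points for DDX and orange for DHX rows, a black bar for the median over the symbols of a role and a dashed line at the median of all symbols (0.954 RPKM). The ribosome assembly rows lie to the right of the dashed line, as do all splicing rows, while the mitochondrial and antiviral rows lie to its left.

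RNA helicases with other names had a similar middle level. Of 20 list entries 17 symbols were found, 15 at RPKM 1 or more (88.2%, against 49.0% of all symbols and 55.2% of protein-coding ones), with a median of 5.13 RPKM. The highest were the translation initiation helicase eif4a1a at 22.5 RPKM, ASCC3, which rescues collided ribosomes, at 16.6 RPKM, SNRNP200 at 10.6 RPKM and AQR, a helicase of the spliceosome, at 7.09 RPKM. The other eIF4A genes found were lower, eif4a1b at 4.18 RPKM and EIF4A2 at 2.51 RPKM. The list entry eif4a3 matched no symbol, so it has no value here. The exosome helicase MTREX had 5.78 RPKM and its cytoplasmic relative SKIC2 1.27 RPKM. Under RPKM 1 were IFIH1, an antiviral sensor related to DHX58, at 0.809 RPKM and the germ-line helicase TDRD9 at 0.319 RPKM. The TDRD9 value rests on about 4.19 reads per kilobase.

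Genes for proteins that work with these helicases were detected in 32 of 34 symbols, from 40 list entries (94.1%, against 49.0% of all symbols and 55.2% of protein-coding ones), with a median of 5.88 RPKM. The highest were RBM8A at 60.9 RPKM and the row named MAGOHB at 42.0 RPKM, which form the core of the exon junction complex around the helicase eIF4A3. PINX1, a G-patch protein of the nucleolus, had 38.0 RPKM and THOC7, a subunit of the export complex THO, had 27.0 RPKM. PINX1 was the highest of 11 listed G-patch genes, a family whose proteins activate DEAH-box helicases such as DHX15. The others had gpkow at 15.3 RPKM as their highest and TFIP11, which works with DHX15 in spliceosome disassembly, as their lowest at 2.45 RPKM, and the median of all 11 was 8.85 RPKM. GLE1 and nup214, which activate and anchor DDX19 at the pore, had 5.68 and 3.61 RPKM. In the SMN complex, to which DDX20 (5.04 RPKM) belongs, GEMIN8 had 11.4 RPKM, smn1 8.83 RPKM, GEMIN2 7.81 RPKM, GEMIN5 2.75 RPKM and GEMIN7 1.76 RPKM. GEMIN4, the direct partner of the DDX20 protein, was lowest at 0.133 RPKM, about 1.75 reads per kilobase over both libraries. The list entry gemin6 matched no symbol. The microRNA processing genes DGCR8 and DROSHA had 9.01 and 3.91 RPKM. mavs, the adaptor of antiviral sensing, had 0.239 RPKM (about 3.14 reads per kilobase), beside DHX58 at 0.263 RPKM. Values this low rest on few reads.

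**Figure D4:**
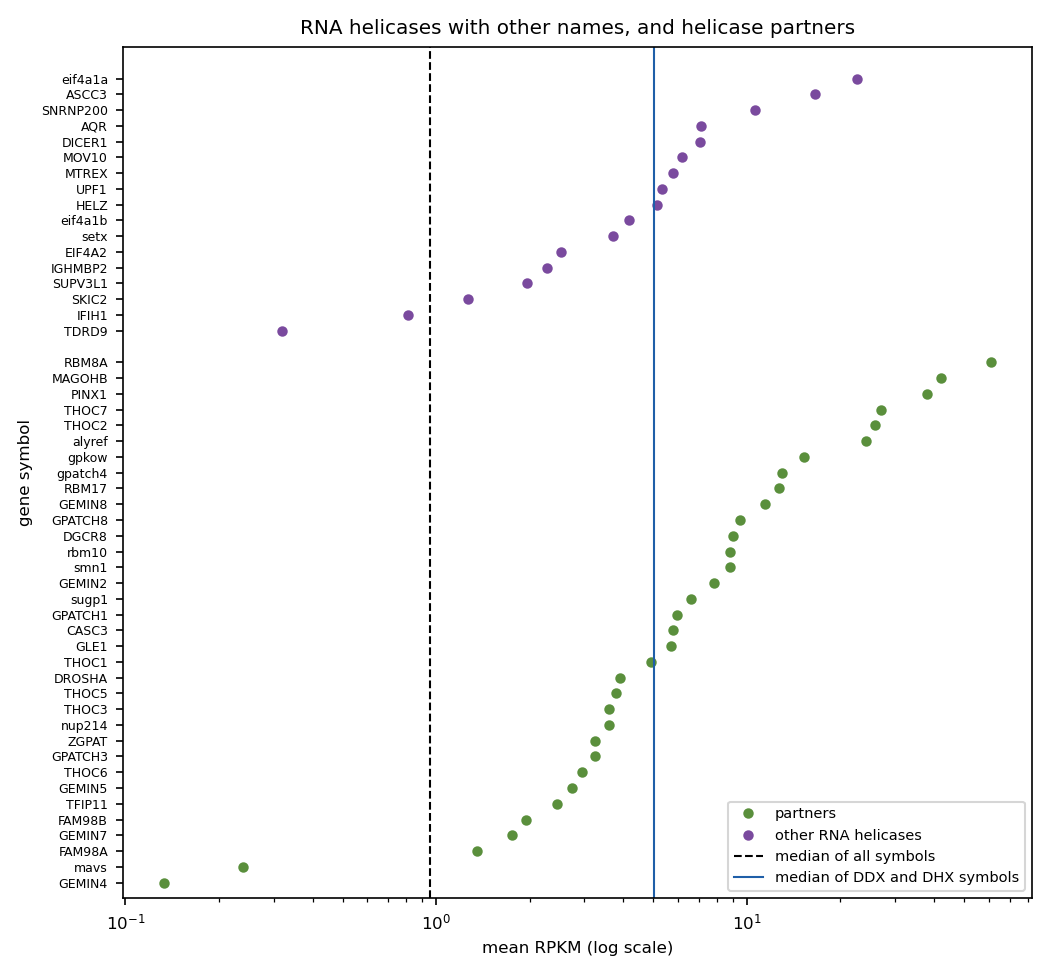
Mean RPKM (log axis) of 17 RNA helicases named outside the DDX and DHX pattern (purple) and 34 helicase partners (green), each sorted by level; the dashed line is the median of all symbols (0.954 RPKM) and the blue line the median of the DDX and DHX symbols (5.04 RPKM). Both sets centre near the blue line, and TDRD9, IFIH1, mavs and GEMIN4 lie left of the dashed line.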

How the data were processed

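RNA was immunoprecipitated with anti-FLAG beads, fragmented and made into libraries with a small-RNA kit, per the labels' protocols. The deposited table holds 1 RPKM per Ensembl gene, averaged by the authors over 2 replicates, as its name says. Per the submitters' processing notes, the Zv9 build was used with TopHat2 2.1.1, Bowtie, cutadapt 1.13, Trimmomatic 0.36, FastQC, bedtools 2.16.2 and MACS2 2.0.10. The sources used here do not give their roles, the annotation, gene lengths, strand or the handling of multiple alignments.

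Names came from a gene name table (21939 identifiers, 65.0%). The naming pattern also fits 8 identifiers that are not rows of the table and 2 further genes that are not reported here. The members, roles and lists were chosen with earlier results of these data known. The naming rule covered every member, the 4 highest of each other list, and any listed at 0; other list genes were named after their values were seen. Roles came from general knowledge, mostly of human and yeast proteins. RefSeq (GRCz12tu) supplied synonyms, protein-coding status and overlaps; protein features were not analysed here. Symbols were matched to protein-coding genes directly, by synonym or without a paralogue suffix.

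Depth was read from values shared by at least 3 rows, with whole lengths within 0.002; the steps accounted for 135 of 171 rows (78.9%). On a simulated pair of libraries, averaged plainly and with depths further apart than those found here, the search erred by at most 0.00015%. Its error on the real libraries was not measured. Intervals are exact Poisson, and binomial for ratios. Member selection and counts were also tested on simulated data. Python 3.11.15, pandas 2.3.3 and scipy 1.17.1 were used.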

Additional observations from a re-analysis of the deposited data

How the results depend on the processing

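The number of helicase symbols called detected was 36 of 39 at RPKM 1, 39 at RPKM 0.1 and 20 at RPKM 5. With every row kept it was 37 of 42 at RPKM 1. The background share at RPKM 1 was 49.0% of all symbols and 38.6% of all rows. At RPKM 0.1 and 5 the background share was not computed. The quartiles of all symbols were 0.237 and 3.14 RPKM, so most symbols also passed RPKM 0.1 and most did not reach RPKM 5. The median of 5.04 RPKM became 7.71 RPKM over members at RPKM 1 or more, a filter that can only raise it, and 4.91 RPKM with every row or without ddx43. Without ddx43 and DDX21, a setting chosen after seeing the data, it was 4.79 RPKM. The share of members above the background median was 92.3% against all symbols, 97.4% against all rows, 84.6% against protein-coding symbols (chosen after seeing the data) and 69.4% where members and symbols were both limited to RPKM 1 or more. The DDX minus DHX difference of medians, 2.04 on the log2 scale, was 1.71 with a pseudocount of 1, 2.09 with 0.01 and 1.82 over members at RPKM 1 or more. The filter at RPKM 1 could not test the role medians, because in 12 roles (the genes with none assigned counted as a role) it removed no symbol and in the mitochondrial and antiviral roles it removed every one. No paired analysis was possible because all samples belong to 1 group. Leaving out a replicate was not run, since replicate values are merged in the deposited mean. Depth limits members near RPKM 1, where a 1 kb model has about 13.1 reads and a counting error of 27.6%.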
